A study of Mus musculus with 4 samples.

Results

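NRF2 antioxidant and metallothionein genes were examined in mouse embryonic stem cells after induced loss of Ogt, the gene for O-GlcNAc transferase, which adds N-acetylglucosamine to serine and threonine residues of nuclear and cytosolic proteins. The members were 10 listed genes, all of them present among the 25239 gene symbols of each count table. Nfe2l2 and Keap1 are regulators, Nqo1, Hmox1, Gclc, Gclm, Txnrd1 and Srxn1 encode enzymes that NRF2 is known to induce, and Mt1 and Mt2 encode metallothioneins. This list was drawn up with earlier results of these libraries known. All cells carried the genotype Ogt fl/fl. The Ogt iKO group (2 libraries) was treated with 4-OHT (4-hydroxytamoxifen) for 6 days, and the control group (2 libraries) was kept for the same time without it. Both groups grew on mitomycin C-treated mouse embryonic fibroblasts in a medium with LIF, 15% KnockOut Serum Replacement and 50 µM β-mercaptoethanol, a reducing agent. Viable cells were sorted with the aim of removing the feeders, and in the Ogt iKO group YFP-positive cells were selected as well. The labels name CD90.2 as the marker that picks the stem cells and CD326 as the one that excludes feeders. CD90 (Thy1) is usually a fibroblast marker and CD326 (Epcam) a stem cell marker, so whether these roles are exchanged in the description or were so in the sort is not known. The labels describe neither the recombinase and its promoter nor cells given 4-OHT with Ogt intact, so loss of Ogt, the ligand, the recombinase and the YFP selection cannot be told apart.

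NRF2, the product of Nfe2l2, is a transcription factor that is held at a low level because KEAP1 presents it to a CUL3 ubiquitin ligase. Electrophiles and oxidants modify cysteines of KEAP1, NRF2 then accumulates, pairs with a small MAF protein and binds antioxidant response elements, while BACH1 competes for many of the same sites. Its targets make glutathione, reduce thioredoxin and sulfinylated peroxiredoxins, reduce quinones and degrade haem. Metallothioneins are short cysteine-rich proteins that bind zinc and copper, and their genes are induced mainly by the zinc-sensing factor MTF1 through metal response elements. Control of NRF2 is largely at the protein level, which RNA counts do not show.

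Library totals ran from 14668489 to 16504204 counts. A count of 0 still allows 3 counts, which is 0.182 to 0.205 CPM of the unscaled library totals. CPM is a gene's count scaled to a common library total, and levels below are CPM on TMM-scaled library sizes, a scaling that sets the bulk of genes to no change. With scaling by library totals alone, the median over all genes moved from a log2 fold change of 0.02 to 0.19, and the share of calls that were higher went from 50.9% to 65.1%. Ogt itself, the targeted gene, had 2963 and 3108 counts without 4-OHT and 437 and 389 after it, as labelled. Stem cell identity was checked with 14 markers, none of which was at 0 in all libraries. Their summed level was 3791 and 4212 CPM in Ogt iKO and 6561 and 6557 CPM in control, 13 of them fell, and Pou5f1 (OCT4) kept 8368 and 8914 counts where the controls had 13836 and 13032. The part of this shift in the results for the 10 genes was not tested. Fibroblast markers were present in all 4 libraries, and Ogt iKO replicate 1 held 2.2 times the summed level of replicate 2. In these bulk samples, a change in RNA per cell and a change in the share of cells that express a gene cannot be told apart. The labels do not say whether replicates came from separate cultures, so p-values measure only the spread between these libraries.

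After 6 days of 4-OHT, 7 of the 10 genes were higher and 1 was lower. A gene was called when its edgeR quasi-likelihood p, adjusted by Benjamini-Hochberg over the 14525 genes tested, was below 0.05, and all 10 genes passed the filter on low counts. Across all genes tested 33.2% were called higher, 32.0% lower and 65.3% in either direction, and these shares are the background against which the 7 higher and 1 lower among the 10 genes are to be read. No test was made of the list as a whole. The median log2 fold change of the 10 genes was 0.30, and changes differed widely in size. The largest were in Mt1, at 197 ± 7.12 CPM in Ogt iKO and 44.0 ± 7.61 CPM in control (SD, n = 2 each, 4.47-fold), Mt2, at 334 ± 16.6 and 77.6 ± 7.81 CPM (4.30-fold), and Hmox1, at 489 ± 23.6 and 154.5 ± 0.34 CPM (3.17-fold). Keap1, Nqo1, Gclc and Gclm changed by less than 1.5-fold, Txnrd1 fell to 65.5% of control, and Nfe2l2 and Srxn1 did not pass the test. The 2 libraries of one group did not overlap those of the other in CPM for any of the 10 genes, which was also true of 83.2% of all genes tested.

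**Figure D1:**
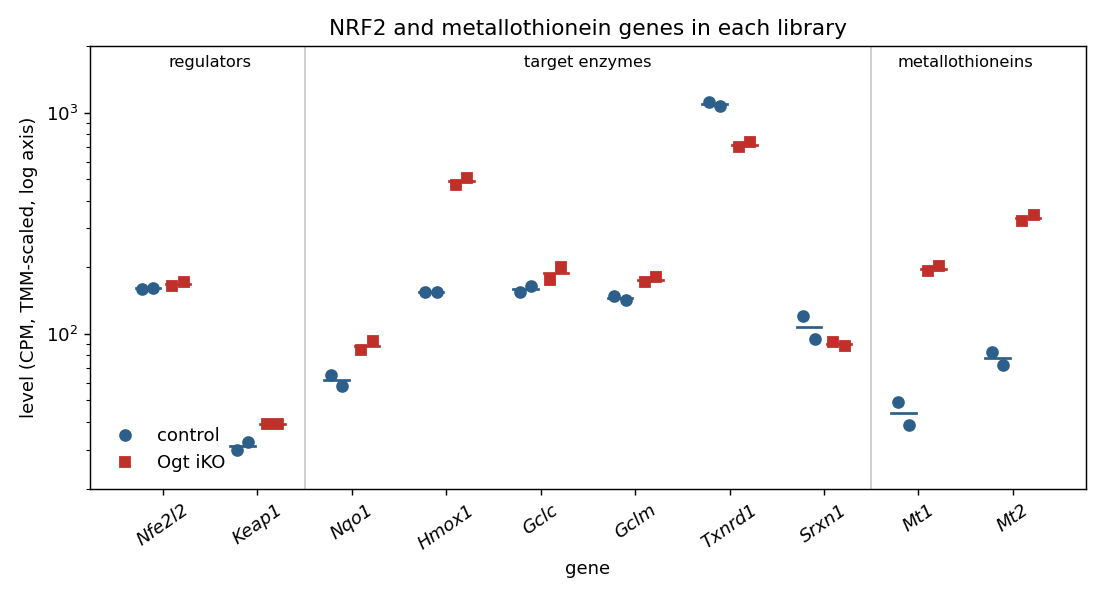
Level of each gene in each library, in TMM-scaled CPM on a log axis, with control libraries as blue circles, Ogt iKO libraries as red squares and the mean of each group of 2 as a line. Hmox1, Mt1 and Mt2 show the widest gaps upward, from a mean of 154.5 to 488.9 CPM for Hmox1, and Txnrd1, the most abundant in CPM, lies lower in both Ogt iKO libraries.

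Among the regulators, Nfe2l2 (chromosome 2 from 75675513 to 75704641 in GRCm38, minus strand) had 2816 and 2658 counts in Ogt iKO and 2459 and 2481 in control. On the CPM scale these were 164.7 and 171.4 CPM against 158.9 and 161.7 CPM. The Ogt iKO libraries lay above the controls by a few percent. The log2 fold change was 0.07 (SE 0.056, edgeR adjusted p 0.316), and it ran from 0.02 to 0.10 when each library was left out. Scaled by library totals alone it was 0.24 and past the threshold, against the median of 0.19 for all genes on that scale. Keap1 (chromosome 9 from 21229730 to 21239361, minus strand), which encodes the adaptor that targets NRF2 for degradation, had 666 and 606 counts in Ogt iKO and 460 and 498 in control. That is 38.96 and 39.07 CPM against 29.72 and 32.47 CPM, higher in both Ogt iKO libraries by 0.33 on the log2 scale (SE 0.083, edgeR adjusted p 0.00809). The call was not made by DESeq2 (adjusted p 0.0743) or without control replicate 1 (0.26 on the log2 scale, adjusted p 0.0705, edgeR). Within a library, Nfe2l2 had 4.23 and 4.39 counts per Keap1 count in Ogt iKO against 5.35 and 4.98 in control. An exon of Gm16754 on the opposite strand covers 10.9% of the exon length of Keap1, and since the strand counted is not stated, some of its reads could come from there.

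Hmox1 changed most among the target enzymes. It encodes haem oxygenase 1, which breaks haem into biliverdin, iron and carbon monoxide, and lies on chromosome 8 from 75093621 to 75100589. It had 8073 and 7842 counts in Ogt iKO and 2387 and 2373 in control, or 472.2 and 505.6 CPM against 154.2 and 154.7 CPM. The gap between the groups far exceeded the gap within either, where the higher library was 7.06% and 0.31% above the lower. The log2 fold change was 1.66 (SE 0.060, edgeR adjusted p 5.45e-07), the 1041st largest of the 14525. Leaving out each library gave 1.59 to 1.72. Hmox2, the constitutive haem oxygenase, had a log2 fold change of 0.30, so that Hmox1 had 8.31 and 8.77 counts per Hmox2 count in Ogt iKO against 3.10 and 3.59 in control. The count of Hmox2 is uncertain, because 41.9% of the 50-base windows of its transcripts also occur in transcripts of other genes.

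Nqo1, which encodes a quinone reductase often used as a readout of NRF2, lies on chromosome 8 from 107388225 to 107403206 (minus strand). Its level was 84.35 and 92.38 CPM in Ogt iKO (1442 and 1433 counts) and 65.39 and 57.96 CPM in control (1012 and 889 counts). Both treated libraries were higher, by 0.52 on the log2 scale (SE 0.085, edgeR adjusted p 0.000753), with a range of 0.42 to 0.60 over the fits that each left out 1 library.

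Gclc and Gclm encode the catalytic and the modifier subunit of glutamate-cysteine ligase, the first enzyme of glutathione synthesis. Gclc (chromosome 9 from 77754535 to 77794485) stood at 175.7 and 200.6 CPM in Ogt iKO against 154.7 and 164.4 CPM in control. Gclm (chromosome 3 from 122245557 to 122270732) stood at 171.3 and 180.5 CPM against 147.6 and 142.8 CPM. Both subunits were thus slightly higher in both Ogt iKO libraries. The log2 fold change was 0.24 for Gclc (SE 0.074, edgeR adjusted p 0.0207) and 0.28 for Gclm (SE 0.059, edgeR adjusted p 0.00318). The call of Gclc was lost without Ogt iKO replicate 2, where the value was 0.11 (adjusted p 0.198, edgeR), and without control replicate 1, where it was 0.19 (adjusted p 0.124, edgeR). Counts of Gclc per 100 Gclm counts were 102.6 and 111.1 in Ogt iKO and 104.8 and 115.1 in control, ranges that overlap.

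Txnrd1, the cytosolic selenoenzyme that reduces thioredoxin, went the other way. It lies on chromosome 10 from 82833951 to 82897712 and had 11931 and 11361 counts after 4-OHT and 17195 and 16438 without it, or 697.9 and 732.4 CPM against 1111 and 1072 CPM. Each Ogt iKO library was below every control library, and the gap was many times that between libraries of a group (4.95% and 3.67%). The log2 fold change was -0.61 (SE 0.058, edgeR adjusted p 4.1e-05), between -0.67 and -0.57 with each library left out and -0.44 under library totals alone. By log2 fold change it ranked 2356th from the lowest.

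Srxn1, which encodes sulfiredoxin, the enzyme that repairs overoxidised peroxiredoxins, had 1576 and 1363 counts in Ogt iKO and 1854 and 1450 in control. Its level of 92.18 and 87.87 CPM in Ogt iKO lay just under 119.8 and 94.53 CPM in control. The controls differed from each other by 26.7%, more than the distance from the lower control to the higher Ogt iKO library. The log2 fold change was -0.25 (SE 0.103, edgeR adjusted p 0.0589). The value was -0.08 and not past the threshold without control replicate 1, and it was called lower in each of the other 3 leave-outs, at -0.42 without control replicate 2 (edgeR adjusted p 0.00292), -0.28 without Ogt iKO replicate 1 and -0.24 without Ogt iKO replicate 2. DESeq2 placed it past the threshold (-0.28, adjusted p 0.0379), as did edgeR with RLE size factors (-0.26, adjusted p 0.0427). Srxn1 lies on chromosome 2 from 152105516 to 152111376.

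**Figure D2:**
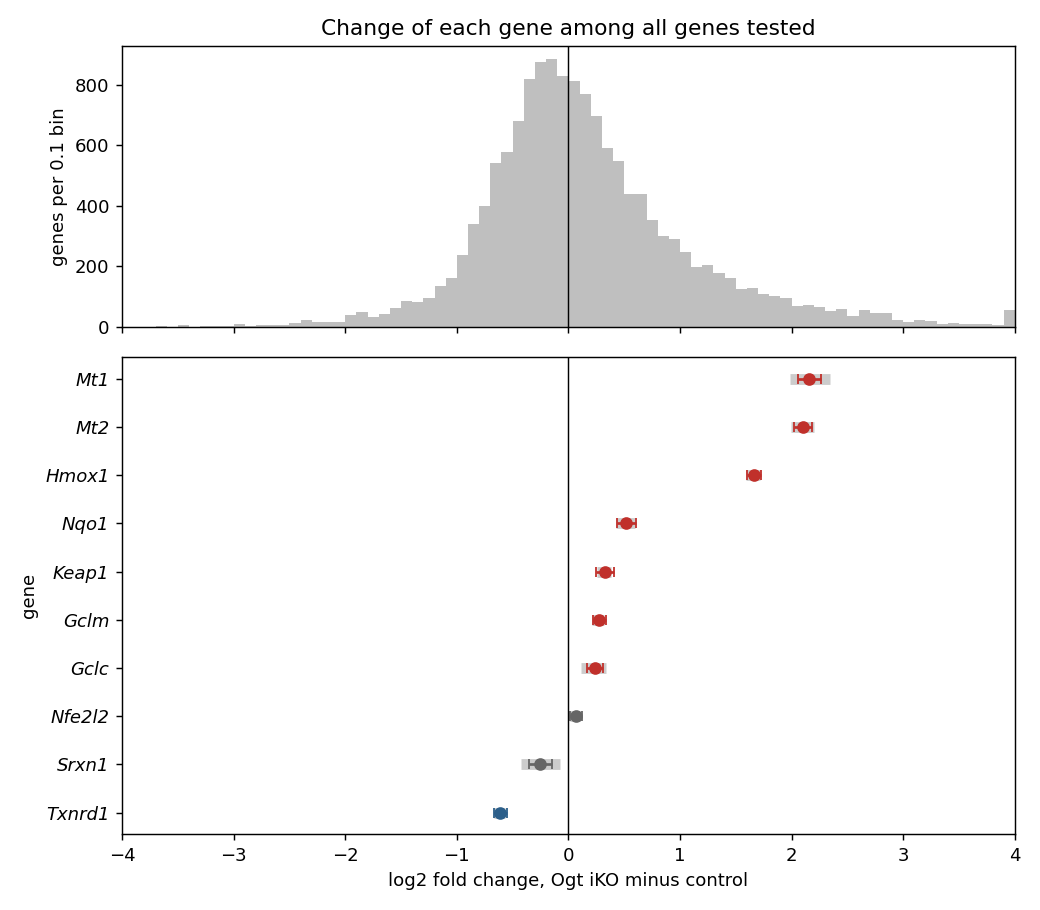
The upper panel counts all 14525 genes tested by log2 fold change (Ogt iKO minus control) in bins of 0.1, with genes beyond the axis added to the outermost bins. In the lower panel, points are the 10 genes with bars for 1 SE, grey bands span the values with each library left out, and colours mark genes called higher (red), lower (blue) or not called (grey). Mt1 (2.16), Mt2 (2.10) and Hmox1 (1.66) lie in the upper tail and Txnrd1 (-0.61) on the lower flank.

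The metallothioneins rose most and together. Mt1 (chromosome 8 from 94179082 to 94180327) had 3281 and 3133 counts in Ogt iKO and 765 and 593 in control, or 191.9 and 202.0 CPM against 49.43 and 38.66 CPM. Mt2 lies beside it, from 94172664 to 94173568 and so 5.51 kb away on the same strand. It had 5503 and 5357 counts against 1287 and 1106, or 321.9 and 345.4 CPM against 83.16 and 72.11 CPM. For both genes the Ogt iKO libraries lay close together and far above the controls, whose own gap was 27.9% for Mt1 and 15.3% for Mt2. Log2 fold changes were 2.16 for Mt1 (SE 0.103, edgeR adjusted p 1.59e-06) and 2.10 for Mt2 (SE 0.079, edgeR adjusted p 7.05e-07), the 564th and 606th largest of all genes tested. With each library left out they ran from 1.98 to 2.34 and from 1.99 to 2.20.

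The pair kept nearly the same proportion, with 59.6 and 58.5 Mt1 counts per 100 Mt2 counts in Ogt iKO and 59.4 and 53.6 in control. Together they took 5.45 and 5.79 of every 10000 counts in Ogt iKO and 1.24 and 1.05 in control. No 50-base window of the Mt1 transcripts occurs in an annotated transcript of any other gene, Mt2 included, so reads of that length that match exactly would not be split between them. For Mt2, 73.5% of the exon length lies under an exon of Gm45774 on the opposite strand, a gene that is not among the rows used, so antisense reads could be part of its count if the strand was not used. The family also includes Mt3, with 56 and 47 counts in Ogt iKO and 39 and 58 in control and a log2 fold change near 0 (0.003, adjusted p 0.993, edgeR), and Mt4, with 0 and 0 counts against 4 and 0, which was too low to test. Mt3 and Mt4 were picked for mention after their values were seen.

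Promoter windows show where the letters of both response elements occur in genes that moved apart. RefSeq sequences (GRCm38.p6) held windows for 8 of the 10 genes, and the 250 bases before each annotated start were searched on both strands for the core of the antioxidant response element (TGACNNNGC) and for the core of the metal response element in its 2 forms (TGCACNC and TGCGCNC). The 4 windows shown are those of the pair of members that rose most, of Gclm, which rose slightly, and of Txnrd1, which fell, each written 5′ to 3′ on the gene's strand with matches to any of these motifs in capitals. The Mt2 window is chr8:94172368-94172617, that of Mt1 chr8:94178839-94179088, that of Gclm chr3:122245307-122245556 and that of Txnrd1, at the second of its 3 annotated starts, chr10:82858956-82859205, all on the plus strand.
Mt2: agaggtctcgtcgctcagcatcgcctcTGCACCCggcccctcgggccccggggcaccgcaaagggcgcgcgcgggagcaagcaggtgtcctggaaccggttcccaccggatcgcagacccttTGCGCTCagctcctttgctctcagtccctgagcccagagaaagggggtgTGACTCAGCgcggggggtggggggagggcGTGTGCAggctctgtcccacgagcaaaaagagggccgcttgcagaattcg
Mt1: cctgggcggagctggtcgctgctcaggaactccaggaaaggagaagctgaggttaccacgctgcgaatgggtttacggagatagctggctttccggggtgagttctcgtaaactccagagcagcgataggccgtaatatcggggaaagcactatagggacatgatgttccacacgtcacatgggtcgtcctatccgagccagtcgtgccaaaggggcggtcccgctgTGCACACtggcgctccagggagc
Gclm: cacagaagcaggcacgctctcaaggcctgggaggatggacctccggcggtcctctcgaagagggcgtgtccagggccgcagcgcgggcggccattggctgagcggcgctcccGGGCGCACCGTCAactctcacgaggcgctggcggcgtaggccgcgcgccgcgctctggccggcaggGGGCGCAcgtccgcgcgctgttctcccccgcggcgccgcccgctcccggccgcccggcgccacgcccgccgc
Txnrd1: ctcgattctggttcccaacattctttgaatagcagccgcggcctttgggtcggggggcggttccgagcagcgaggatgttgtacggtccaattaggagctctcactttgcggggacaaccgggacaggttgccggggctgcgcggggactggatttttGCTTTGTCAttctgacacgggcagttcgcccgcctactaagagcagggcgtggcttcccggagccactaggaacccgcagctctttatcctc

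Mt2 held 3 metal response element cores and 1 antioxidant response element core, the latter (TGACTCAGC) 71 to 79 bases before the start. At least 3 metal response element cores occurred in 1.26% of the 32851 promoter windows of that length, and an antioxidant response element core in 10.2%. Mt1 held 1 metal response element core (TGCACAC), and 21.4% of all windows held at least 1. Counted over the full 300 bases, which add the 50 bases after the start, Mt2 had 4 metal response element cores and Mt1 and Gclm had 3 each. At least 4 occurred in 0.517% of windows and at least 3 in 1.97%. Srxn1 then also held 1 antioxidant response element core, and 12.4% of windows held at least 1. The GENCODE start of Mt2 lies inside those added bases. Gclm held 2 metal response element cores in its 250 bases, and 5.17% of windows held at least 2. One of them overlaps its antioxidant response element core (TGACGGTGC, on the minus strand). Txnrd1 held an antioxidant response element core (TGACAAAGC, minus strand) in the window shown and no match in the other 2. Nfe2l2 held 1 antioxidant response element core, Srxn1 1 metal response element core, and the windows of Nqo1 and Keap1 none of these letters. A match is only a run of letters, and these windows do not reach more distant elements, nor any beyond 50 bases after the start. Whether the start used for Mt1 is the one in use was not tested, so elements near another start may be missed.

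Per kilobase of exon, the order of the 10 genes changed. In control, Txnrd1 was highest at 154.0 CPM per kb, before Mt2 at 132.0 and Hmox1 at 88.2. Gclc, Nfe2l2, Nqo1, Srxn1 and Mt1 followed between 42.4 and 35.4, where each neighbour overlapped the next in its 2 libraries, and Gclm (23.1) and Keap1 (6.63) came last. In Ogt iKO the order was Mt2 at 567.4 CPM per kb, Hmox1 at 279.2, Mt1 at 158.1 and Txnrd1 at 100.9, and no neighbours in the order of 10 overlapped. Mt1 thus went from place 8 in control to place 3. Exon lengths are unions over all annotated transcripts, which can make a level per kilobase lower than that of the transcript in use. For Mt1 the union, 1246 bases, covers its whole annotated span, so its places rest on that length.

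Fibroblast markers were set beside these values, since cells other than stem cells can also make metallothioneins and haem oxygenase 1. The summed level of 24 markers was 5508 and 2500 CPM in the Ogt iKO libraries and 3077 and 3391 CPM in the controls, with none at 0 in all libraries. All 24 were higher in Ogt iKO replicate 1 than in replicate 2, and most of the sum came from collagen genes, Fn1 and Sparc. Col1a1 ran from 2785 counts in Ogt iKO replicate 2 to 15453 in replicate 1. Hmox1, Mt1 and Mt2 were slightly higher in replicate 2 than in replicate 1, and without replicate 1 their log2 fold changes were 1.72, 2.20 and 2.16.

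Of the 24 markers, 5 rose and 1 fell (edgeR), or 20.8% and 4.17%, where all genes gave 33.2% and 32.0%. The 5 were above both controls in both Ogt iKO libraries, as Hmox1, Mt1 and Mt2 were. Groups did not overlap for 83.2% of all genes tested. Tagln, which encodes the actin-binding protein transgelin, had 257.5 and 222.4 CPM in Ogt iKO against 44.19 and 34.94 CPM in control, a log2 fold change of 2.60. Its count is uncertain, because 67.9% of its exon length lies under an exon on the opposite strand and 58.3% of its 50-base windows occur in other genes. Acta2, for smooth muscle actin, had 138.3 and 75.94 CPM against 35.15 and 29.99 CPM (1.72 on the log2 scale). Pdgfrb, a growth factor receptor, rose by 1.61, Twist1, a mesenchymal transcription factor, by 1.45, and Sparc, a matrix protein, by 0.82. Vim, for vimentin, fell by 0.87. These 6 are named because their values passed the test. Many marker changes depended on 1 library, with Col1a1 at -0.75 without Ogt iKO replicate 1 and 1.55 without Ogt iKO replicate 2. With a robust spread 3 of the 24 markers were called higher, where all genes gave 33.5%. Acta2 (edgeR adjusted p 0.0773), Sparc (0.0831) and Vim (0.166) were then not past the threshold. Thy1 had 437 and 138 counts in Ogt iKO and 241 and 240 in control, and Epcam 4794 and 4452 against 5376 and 4704. The part of fibroblasts or other mesenchymal cells in the values of Hmox1, Mt1 and Mt2 was not tested.

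**Figure D3:**
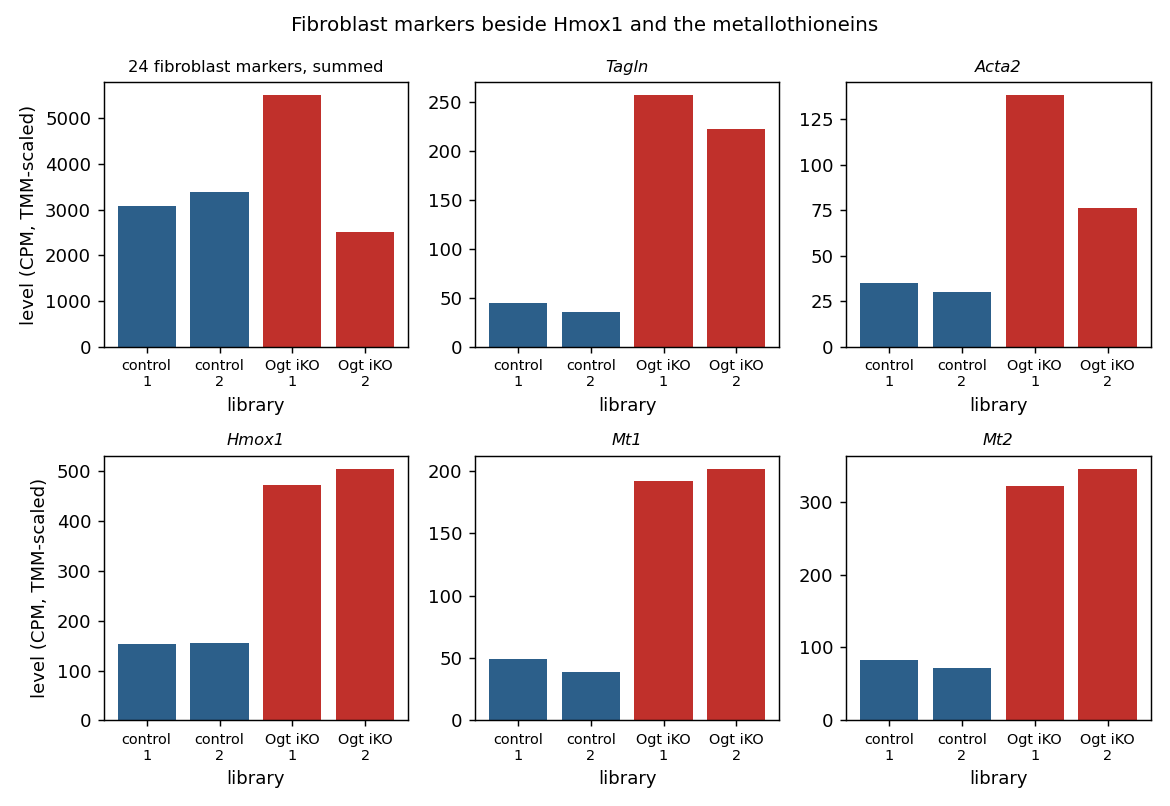
Bars from 0 give the level in TMM-scaled CPM in each library, in blue for control and red for Ogt iKO, of 24 fibroblast markers summed, of the markers Tagln and Acta2 alone, and of Hmox1, Mt1 and Mt2. The sum is highest in Ogt iKO replicate 1 (5508 CPM) and lowest in Ogt iKO replicate 2 (2500 CPM). Tagln, Acta2, Hmox1, Mt1 and Mt2 are each higher in both Ogt iKO libraries than in both controls. Tagln and Acta2 were picked for their values, and of the 24 markers 5 were called higher, 1 lower and 18 not called.

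Other genes of these pathways were taken from 8 lists of 160 genes, of which 150 were tested. Of these 49 were higher and 45 lower, or 32.7% and 30.0%, near the 33.2% and 32.0% of all genes, and their median log2 fold change was 0.02, as for all genes (0.02). In 7 of the 8 lists genes moved in both directions. Under library totals alone 68 of the 150 pathway list genes (45.3%) were called higher and 30 lower, where all genes gave 42.1% and 22.6%. DESeq2 made fewer calls over all genes (21.6% higher and 25.0% lower), as did the fits without control replicate 1 (26.3% higher) or control replicate 2 (26.5% higher), and the counts by list given for these fits are to be read against those shares.

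In the list of NRF2 partners, repressors and degradation factors, 6 of 22 rose, 6 fell and 10 did not pass (median log2 fold change -0.03). DESeq2 called 3 higher, and library totals alone gave 9 higher and 3 lower. Bach1, the repressor that competes with NRF2, rose by 0.51 on the log2 scale (SE 0.080, edgeR adjusted p 0.000624), from 880 and 777 counts to 1323 and 1172. Its relative Bach2 rose by 0.67 from lower counts. Dpp3, whose product binds KEAP1, fell by 0.85 on the log2 scale. Sqstm1, the autophagy receptor p62 that sequesters KEAP1, rose by 0.19. The values of Cul3 (-0.07), Mafg (-0.02) and Nfe2l1 (-0.03), which encode the ligase scaffold, a dimer partner and a related factor, were not past the threshold.

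Of the 31 tested genes of glutathione synthesis, recycling and use, 10 rose and 9 fell (median 0.11), and 6 were higher by DESeq2. Gss, for the second enzyme of glutathione synthesis, rose by 0.77, from 407 and 392 to 727 and 709 counts, while Gsr, for glutathione reductase, fell by 0.40. Chac1, whose product degrades glutathione, changed most, from 700 and 632 counts in control to 188 and 176 in Ogt iKO (log2 fold change -1.95, SE 0.098). Gstm5, a glutathione S-transferase, rose by 1.41. Gpx4, the peroxidase that acts on lipid peroxides, fell by 0.86, although 34.7% of its 50-base windows occur in other genes. Slc7a11, the cystine transporter and a known NRF2 target, had 38 and 19 counts against 37 and 34 and did not pass the test.

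The thioredoxin, peroxiredoxin and glutaredoxin genes were split, with 7 of 22 higher and 8 lower (median -0.17). The 7 became 2 without control replicate 2, 3 without control replicate 1, 4 without Ogt iKO replicate 1 and 2 by DESeq2, and library totals alone gave 10 higher and 5 lower. Glrx, for cytosolic glutaredoxin, rose by 2.52, from 64 and 51 counts to 386 and 315. The other thioredoxin reductases went both ways, since Txnrd3 fell by 1.16 and Txnrd2, the mitochondrial enzyme, rose by 0.49 (edgeR adjusted p 0.00671). Txnrd2 is named because of its value. Prdx1 fell by 0.28. Txnip, an inhibitor of thioredoxin, rose by 0.18, and thioredoxin itself (Txn1) had a value of 0.03 that was not past the threshold. Sod2 and Sod1, the mitochondrial and cytosolic superoxide dismutases, fell by 0.40 and 0.21, and catalase (Cat, -0.10) was not past the threshold. Of the 4 genes for these enzymes 2 were lower, 1 without control replicate 1 and 3 without Ogt iKO replicate 1. Sod3, the extracellular form, had 80 and 12 counts in Ogt iKO and 23 and 30 in control and did not pass the test, but was called lower without Ogt iKO replicate 1 (-1.14) and higher without Ogt iKO replicate 2 (1.42), and it is named because of these values.

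Among the 13 NADPH-producing enzymes, 4 rose and 7 fell (median -0.16). The 7 became 4 without control replicate 2, and library totals alone gave 5 higher and 3 lower. Aldh1l1, of folate metabolism, rose by 1.91 and Me1, malic enzyme, by 0.93, whereas Mthfd2, also of folate metabolism, fell by 1.29 and G6pdx, the entry of the pentose phosphate pathway, by 0.16. Of 17 tested genes of quinone, aldehyde and drug handling, 7 rose and 3 fell (median -0.09). Without control replicate 2 there were 4 higher, without Ogt iKO replicate 2 there were 5 lower, and DESeq2 called 4 higher. Ptgr1, for an alkenal reductase, went from 558 and 465 counts to 2838 and 2795 (log2 fold change 2.38, SE 0.090, adjusted p 7.09e-07, edgeR), a larger change than that of any of the 10 members. Akr1b8, for an aldo-keto reductase, rose by 0.99, and Nqo2, the paralogue of Nqo1, fell by 0.46.

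Haem and iron genes had 8 of 15 higher and 4 lower (median 0.19). The 8 became 5 without control replicate 2 and 4 by DESeq2. Steap3, for a ferrireductase, rose by 1.57 and Slc40a1, for the iron exporter ferroportin, by 1.40, while Fth1 (0.14) and Ftl1 (0.11), the ferritin subunits, were not past the threshold. Other genes share 58.4% of the 50-base windows of Ftl1. Among zinc and copper genes 7 of 26 rose and 6 fell (median 0.03), and library totals alone gave 13 higher and 4 lower. Mtf1, for the factor that induces metallothioneins, rose by 0.24, and Slc30a1, a zinc exporter that is a known MTF1 target, had -0.09 and was not past the threshold. Slc30a4 and Slc39a11, for zinc transporters, rose by 1.14 and 1.01. Slc39a10 and Slc39a14, of the same list, fell by 0.97 and 0.94 and are named because of their values.

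Several of the small changes depended on the fit. DESeq2 did not call Sqstm1, Txnip, G6pdx, Hmox2, Mtf1 or Bach2, and each of these calls was also lost when some 1 library was left out. Under library totals alone Prdx1, Sod1 and G6pdx were not called, and Txn1, Fth1 and Ftl1 were called higher.

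**Figure D4:**
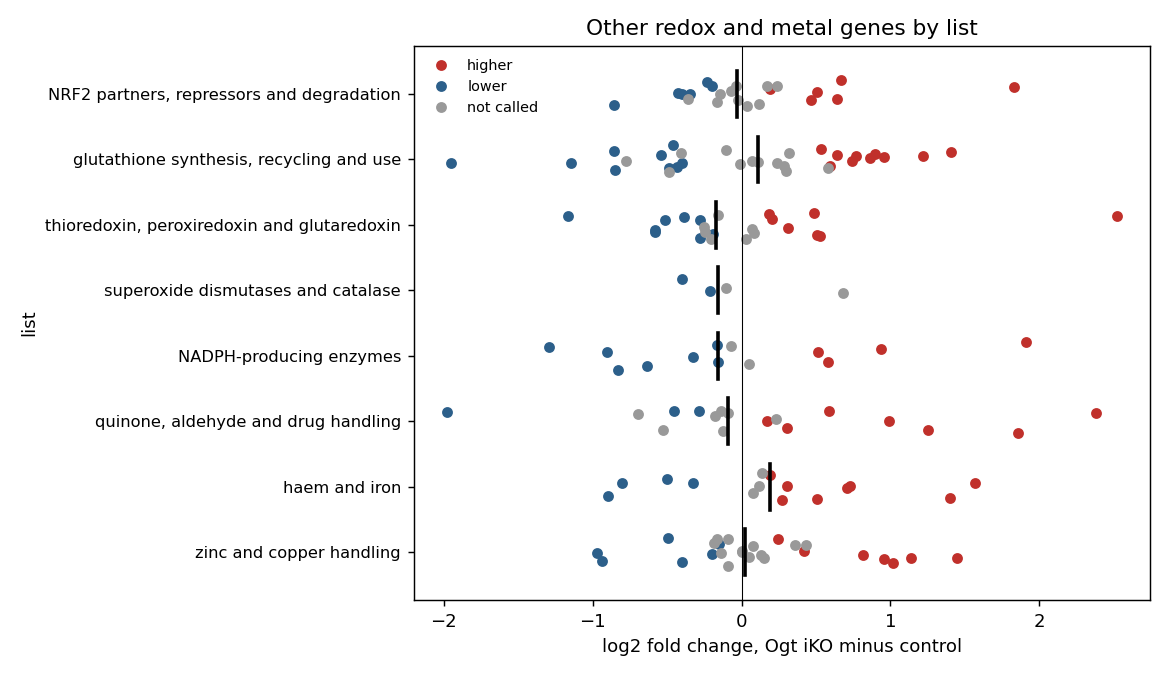
Each point is 1 tested gene of the 8 lists, placed by its log2 fold change (Ogt iKO minus control) and coloured by its call, and black bars mark the median of each list. Medians lie between -0.17 and 0.19, and the widest points to the right are Glrx (2.52) and Ptgr1 (2.38).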

How the data were processed

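Polyadenylated RNA of 4 libraries was compared, 2 Ogt iKO and 2 control, grouped by title. The authors deposited raw counts per gene symbol, 1 column per library, with no normalization and no row without a gene name. STAR, Picard and build mm10 (GRCm38) are named per the submitters' processing notes, while versions, annotation and the strand counted are not given in the sources used here. Reads that fit several loci or overlapping genes may be counted or lost, which touches Mt2, Keap1 and genes with close copies.

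Counts were tested across all genes by the quasi-likelihood method of edgeR 4.0.16 under R 4.3.3 (TMM, filterByExpr, all 4 libraries, no covariate), with Benjamini-Hochberg adjustment over 14525 genes and a threshold of 0.05. Each standard error is the log2 fold change over the root of its F. The procedure was tested on simulated data in which few genes changed, evenly up and down, with a spread common to all genes. In these libraries 65.3% of genes were called, a setting that the simulation did not cover. An exact test of 2 against 2 libraries cannot go below 0.333, and none was used. Exon lengths, overlaps and 50-base windows came from GENCODE M21 and promoters from RefSeq. The 10 members and all lists were chosen with earlier results of these data known. Named are the members, 23 genes chosen by role, up to 2 called genes per list with the largest change and a mean log2 CPM no lower than 2, and markers. Alternatives were RLE, library-total and upper-quartile scaling, DESeq2 1.42.0, 2 other filters, a replicate block, a robust spread, glmTreat at 1.2-fold, a threshold of 0.01 and leaving out each library.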

Additional observations from a re-analysis of the deposited data

How the results depend on the processing

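Hmox1, Mt1, Mt2, Nqo1 and Txnrd1 kept their direction and their call under all 14 alternatives. Of the 10 genes, 8 were called, and 5 (4 higher) by glmTreat against a fold of 1.2, which called 47.9% of all genes. The number called lower went from 1 to 2, with Srxn1 as the addition, under RLE size factors, DESeq2 and the replicate block, and was 1 to 2 with each library left out. With the replicate block, Srxn1 had a log2 fold change of -0.244. The labels give the libraries only a shared number (correlation of deviations 0.086), and the block moved the calls of all genes from 4827 and 4651 to 4922 and 4719. DESeq2 called 29 list genes higher against 49, glmTreat called 29 lower against 45, and library totals alone gave 68 higher and 30 lower. Calls over all genes moved the same way in these fits, from 4827 to 3460 higher by DESeq2, from 4651 to 3215 lower by glmTreat, and to 6116 higher and 3282 lower by library totals. G6pdx reversed to 0.006 under library totals. Col1a1 ran from -0.753 to 1.549, Col1a2 from -0.588 to 1.298 and Thy1 from -0.805 to 0.687 with each library left out, the lowest without Ogt iKO replicate 1. These marker changes follow that library, and the cause was not tested. The lowest count of any of the 10 genes in a library was 460.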
